A study of Mus musculus with 8 samples.

Results

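Il1rl1, Areg, Gata3 and Klrg1 are 4 genes that mark regulatory T cells and innate lymphoid cells of barrier tissues and are commonly read together as a tissue-repair module. They were chosen by name, with earlier results of these data known, and are 4 of the 31053 gene rows in each of the deposited count tables. All 4 were found in all 8 libraries.

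The libraries came from the colonic lamina propria, the connective tissue beneath the gut epithelium, of C57BL/6 mice aged 10 to 12 weeks, and each was a droplet single-cell RNA sequencing library read from the 3' end of transcripts with unique molecular identifiers (UMIs, 1 per captured RNA molecule). Wildtype mice and knock-in mutant mice with a single amino acid substitution in 1 protein were compared, and nothing in the sources used here limits the substitution to a cell type. Mice of each genotype were left on plain water or drank water with 2% dextran sulfate sodium (DSS), a chemical that wounds the lining of the colon, for 7 days followed by plain water for 3 days, and all were harvested on day 10. This gave 4 groups of 2 libraries, each group described as holding independent biological replicates: untreated wildtype, untreated mutant, DSS wildtype and DSS mutant. Per the labels, cells passed a magnetic CD4 T cell isolation kit before about 10000 were loaded. A changed amino acid cannot be read from gene counts, which leaves the genotype labels unchecked.

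Il1rl1 encodes ST2, the receptor chain for IL-33, an alarmin that stromal, endothelial and epithelial cells hold in their nuclei and release on damage. Gata3 encodes a transcription factor needed by group 2 innate lymphoid cells (ILC2) and type 2 helper T cells, and is also active in the tissue regulatory T cells that carry ST2. Klrg1 encodes an inhibitory lectin receptor that binds cadherins, and Areg encodes amphiregulin, a growth factor that acts on the epidermal growth factor receptor and is known for its part in epithelial repair.

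The genes lie apart in the genome. In GENCODE coordinates on GRCm38, Il1rl1 (ENSMUSG00000026069) spans chr1:40429570-40465415 on the plus strand, Areg (ENSMUSG00000029378) chr5:91139599-91148432 on the plus strand, Gata3 (ENSMUSG00000015619) chr2:9857078-9890034 on the minus strand and Klrg1 (ENSMUSG00000030114) chr6:122270596-122282882 on the minus strand. Promoters are shown for Il1rl1 and Areg because Areg did not follow Il1rl1 in several of the comparisons described later. Each is the 250 bases before a RefSeq transcription start on GRCm38.p6, written 5′ to 3′ on the plus strand, with matches in capitals. The windows were searched on both strands for 3 motifs, and no 2 matches overlapped. They were GATA words (GATA with A or T before it and A or G after it), the full cyclic AMP response element TGACGTCA, and the nuclear receptor half-site AGGTCA.
Il1rl1, first start, chr1:40429320-40429569: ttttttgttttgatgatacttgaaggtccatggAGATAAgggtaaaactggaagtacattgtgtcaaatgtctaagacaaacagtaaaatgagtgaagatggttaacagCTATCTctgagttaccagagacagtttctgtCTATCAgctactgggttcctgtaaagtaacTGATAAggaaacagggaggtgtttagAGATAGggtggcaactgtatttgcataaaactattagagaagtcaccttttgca
Il1rl1, second start, chr1:40439379-40439628: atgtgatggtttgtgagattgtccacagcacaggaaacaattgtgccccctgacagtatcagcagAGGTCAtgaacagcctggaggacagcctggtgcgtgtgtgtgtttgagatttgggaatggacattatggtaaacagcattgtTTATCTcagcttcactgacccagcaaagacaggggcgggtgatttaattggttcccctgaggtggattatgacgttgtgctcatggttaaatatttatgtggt
Areg, chr5:91139349-91139598: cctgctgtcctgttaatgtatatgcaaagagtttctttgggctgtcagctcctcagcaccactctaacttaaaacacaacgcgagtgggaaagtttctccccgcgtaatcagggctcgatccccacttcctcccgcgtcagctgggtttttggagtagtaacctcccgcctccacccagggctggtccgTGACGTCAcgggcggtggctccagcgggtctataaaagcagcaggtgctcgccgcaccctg
The first Il1rl1 window held 5 GATA words, a count reached by 14 of 32851 RefSeq promoters of the same length (0.0426%), whereas 26.5% held at least 1. The second window held 1 GATA word and 1 AGGTCA, a word present in 14.0% of promoters. The Areg window held TGACGTCA, present in 1.55% of promoters, at bases 190 to 197 of its 250, and the Gata3 window (chr2:9878601-9878850, minus strand) held none of the 3. These are matches of letters, and binding was not measured. Counts from the 3' end do not tell the 2 Il1rl1 starts apart.

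The tables held 100673 barcodes with 34497509 to 46960005 UMIs per library, and 96721 barcodes passed at least 400 genes and under 20% mitochondrial UMIs. Populations were gated on marker genes that do not include the 4 members, and are named after those markers. T cells needed at least 2 of 6 T cell receptor and CD3 genes, at least 1 CD3 UMI and no second lineage, and were split by a Foxp3 UMI. The 7257 Foxp3-positive T cells numbered 350 to 569 in the untreated and 1324 to 1432 in the DSS libraries, or 6.12 to 8.95% and 16.8 to 24.2% of T cells. Of them 3888 had a single Foxp3 UMI, and 0 to 2.11% of the gated populations that are not T cells had any. The 43102 Foxp3-negative T cells therefore still hold regulatory T cells in which Foxp3 was missed. The list of 27420 cells kept by the authors holds only cells with a Cd4 UMI and is an alternative here. A barcode sequence found in more than 1 library covered 2185 of the passing barcodes, at most 0.532% of the smaller library of any pair.

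Where the members were found differed by gene. Levels are UMIs of a gene scaled to a total of 1000000 UMIs for that population in that library (CPM), and within a gene they can be compared across populations. ILC2-like cells, gated on at least 2 of 8 markers such as Il5, Il13 and Il17rb, were scarce, with 101 cells in all and 13 to 28 in each untreated library, against 0, 7, 11 and 5 in the DSS libraries. Their Il1rl1 level was 467 and 194 CPM in the untreated wildtype, 503 and 246 in the untreated mutant and 540 in the 1 DSS library with at least 10 such cells. By median, Il1rl1 in Foxp3-positive T cells was next among populations with at least 10 cells in 5 or more libraries. Its median was 96.2 CPM and its highest library 155, so that ILC2-like and Foxp3-positive T cells did not overlap. Stromal-like cells, described below, reached 112 CPM in their highest library, within the range of Foxp3-positive T cells. ILC2-like cells exceeded Foxp3-positive T cells of the same library in 5 of 5 libraries for Il1rl1 (median ratio 3.94) and Gata3 (10.6), and in 4 of 5 for Areg (2.98) and Klrg1 (1.99). With the gate raised to 3 markers, Areg in ILC2-like cells stood at 2136 CPM in place of 1514 over all libraries together. The gate admitted only barcodes with no CD3 UMI and no UMI of the T cell receptor gene Trac. A low sum of T cell markers is therefore set in part by the gate and is no check of it. T cell markers summed to 323 to 861 CPM, from 2 of 6 genes, in the untreated ILC2-like cells, against 3466 to 3839 in untreated Foxp3-positive T cells. Of all ILC2-like cells 58.4% had a UMI of a T cell marker, and mast cell markers were at 0.

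For Gata3 the order by median was ILC2-like cells (median 1206 CPM), Foxp3-positive T cells (119, range 108 to 136) and then Foxp3-negative T cells with UMIs of neither or both of the CD4 and CD8 coreceptors (85.2, range 75.2 to 90.0), and none of these 3 overlapped. Populations with lower medians still reached the range of Foxp3-positive T cells. Their highest libraries were 111 CPM in ILC3-like cells (described below), 112 in CD8 T cells and 200 in epithelial-like cells. Klrg1 began with ILC2-like cells and Foxp3-positive T cells, which overlapped, with medians from 77.5 CPM in ILC2-like cells to 35.01 in Foxp3-positive T cells and 19.1 in CD8 T cells, and it was 0 in all libraries of the epithelial-like cells. Areg reached epithelial-like cells too, at 905, 1028, 863 and 1095 CPM in the 4 DSS libraries and 345 in the untreated library with more than 10 such cells. These overlapped both ILC2-like cells (median 1653 CPM) and Foxp3-positive T cells (584). The epithelial-like cells of that untreated library had a median depth of 2268.5 UMIs, against 9268 to 17493 in the DSS libraries. Their Gata3 level was also higher, as given at the end. Whether they are the same kind of cell as those after DSS was not tested. Epithelial-like cells were kept as a single population, in which columnar and squamous cells were not told apart. Which of these carried the Areg UMIs was not tested. The other ILC set, 762 ILC3-like cells gated on markers such as Il22, Il23r and Kit, was below Foxp3-positive T cells in 8 of 8 libraries for each of the 4 members. With every cell thinned to 1000 UMIs, 0 of 729 ILC3-like cells had an Il1rl1 UMI, which at this depth allows a share of up to 0.412%, and without thinning a mean of 0.553% per library had one, while at 1000 UMIs 31 of 98 ILC2-like cells had one. The 12 mast cell-like barcodes held 22 Il1rl1 UMIs (873 CPM) and none of the other 3 members.

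**Figure D1:**
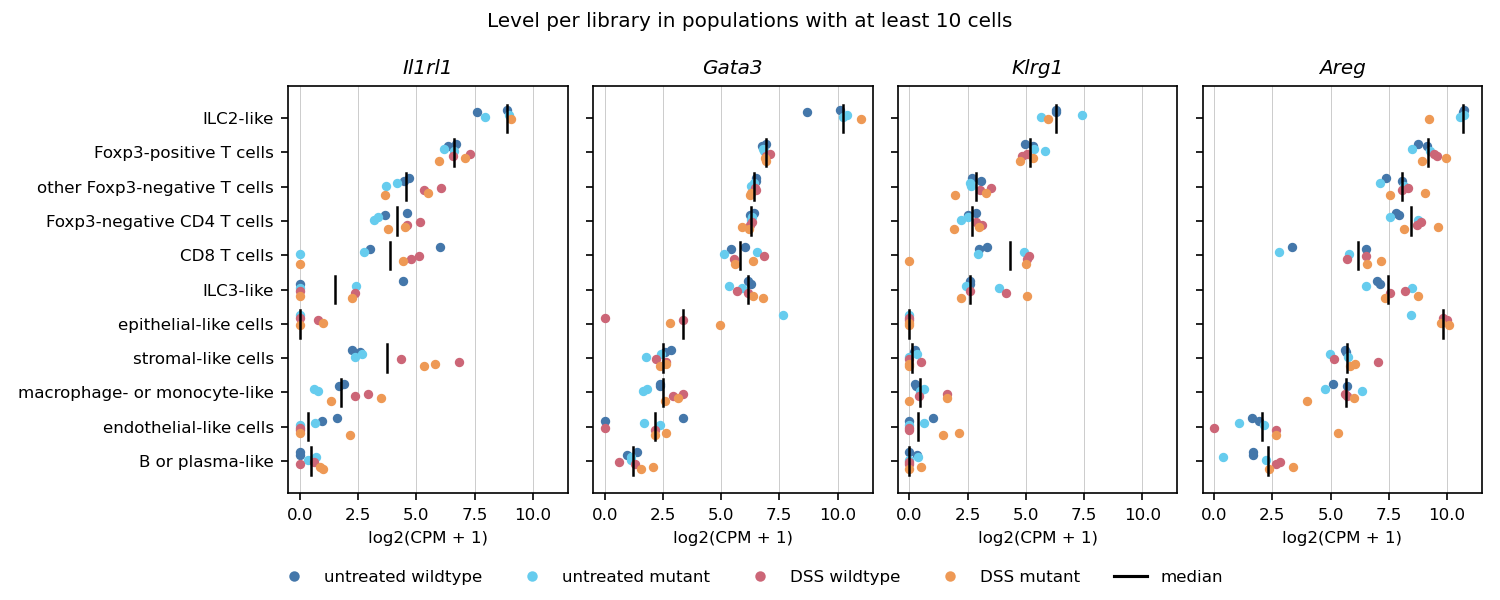
Level of each member, as log2(CPM + 1), in 11 gated populations; each point is 1 library with at least 10 cells of the population, coloured by group, and black bars are medians. By median, ILC2-like cells and Foxp3-positive T cells lie at the top for Il1rl1, Gata3 and Klrg1, and Areg is also high in epithelial-like cells.

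Foxp3-positive T cells, with 8.21% of all UMIs, held 45.6% of the Klrg1 UMIs, 32.9% of the Il1rl1 UMIs, 22.8% of the Areg UMIs and 20.7% of the Gata3 UMIs. Set against the Foxp3-negative T cells of the same libraries, they were higher for all 4 genes in 8 of 8 libraries. Klrg1 was 35.8 ± 9.55 against 6.08 ± 1.84 CPM (SD, n = 8 libraries), a log2 difference of 2.37 ± 0.14 (SE; adjusted p = 1.36e-10, edgeR quasi-likelihood test with library as block and Benjamini-Hochberg adjustment over 12317 genes). Il1rl1 was 100.2 ± 31.8 against 23.4 ± 13.4 CPM, a log2 difference of 2.00 ± 0.11 (adjusted p = 4.96e-11). Areg, at 606 ± 202 against 324 ± 157 CPM, and Gata3, at 119 ± 8.67 against 78.8 ± 6.23 CPM, parted less, by 0.84 ± 0.06 and 0.49 ± 0.05 on the log2 scale (adjusted p = 6.38e-10 and 3.97e-07, edgeR). The groups of libraries did not overlap for Il1rl1, Gata3 and Klrg1, and did for Areg. The share of all genes without such overlap was not counted, so this only describes the values. Among all genes in this test, 40.3% passed and 19.3% were higher. All 4 calls held under each of 14 alternatives, among them the authors' list and at least 2 Foxp3 UMIs.

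Of 17 other genes of a tissue regulatory T cell list, 16 were tested and 13 were higher in Foxp3-positive T cells, among them the integrin chain Itgae (log2 difference 1.94), the cytokine Il10 (1.79), the chemokine receptor Ccr2 (1.24), the transcription factor Ikzf2 (1.12) and Penk, which encodes enkephalin (0.92). The median of the list was 0.62, against -0.01 over all genes tested. Among 4 tested type 2 cytokine genes, Il4, Il5 and Il13 were lower (-1.42, -3.25 and -3.54, all under 2 CPM on either side) and the receptor chain Il4ra was higher (0.21). Of the IL-33 pathway, 1 of 5 tested genes passed, the kinase Irak4 (0.27), while Il1rap, the second chain of the ST2 receptor, had 6.24 against 6.84 CPM (log2 difference -0.28, adjusted p = 0.0628, edgeR).

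Detection in single Foxp3-positive T cells was highest for Areg and lowest for Klrg1. At 1000 UMIs per cell, which left out 35 untreated and 73 DSS cells, a mean over 8 libraries of 28.4% of cells had an Areg UMI, 11.3% a Gata3 UMI, 8.15% an Il1rl1 UMI and 4.17% a Klrg1 UMI. Before thinning, 12.5% had an Il1rl1 UMI. In B or plasma-like cells, which should lack these genes, the shares were 0.532% for Areg, 0.256% for Gata3 and 0 of 5822 cells for Il1rl1 and for Klrg1, which at this depth allows up to 0.0515%. Without thinning, means of 0.210% for Il1rl1 and 0.0594% for Klrg1 had a UMI there. Median depth was 2336 to 3889 UMIs in the Foxp3-positive T cells and 2578 to 8480 in the B or plasma-like cells. Between 52.1 and 69.1% of Foxp3-positive T cells per library had none of the 4.

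The 3 genes other than Areg were found in the same cells more often than their single shares give. An Il1rl1 UMI together with a Klrg1 UMI occurred in 101 of 7149 thinned cells against 26.1 expected from the 2 shares within each library, a ratio of 3.87, and the ratio was 2.85 to 5.58 in the single libraries. Klrg1 was thus present in 16.2% of Il1rl1-positive and 2.77% of Il1rl1-negative cells. The ratio was 2.70 (1.94 to 3.59) for Il1rl1 and Gata3, with Gata3 in 33.3% against 10.1% of cells, and 2.30 (1.45 to 3.04) for Gata3 and Klrg1. All 3 of these pairs were above 1 in 8 of 8 libraries. Areg stood closer to independence over all cells, at 1.29 with Klrg1 (0.943 to 1.86) and 1.21 with Il1rl1 (0.814 to 1.91), each above 1 in 7 of 8 libraries, and 1.13 with Gata3 (0.859 to 1.52), above 1 in 5 of 8. The highest of these single libraries exceeded the lowest library for Gata3 and Klrg1. Areg was present in 36.7% of Il1rl1-positive and 28.8% of Il1rl1-negative cells. The ratio of a common gene such as Areg has a lower ceiling than that of rarer genes. Ratios of pairs with and without Areg are therefore not on the same scale. These ratios describe cells within libraries and carry no test, and cells that differ in type or RNA content within the gate also raise them.

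**Figure D2:**
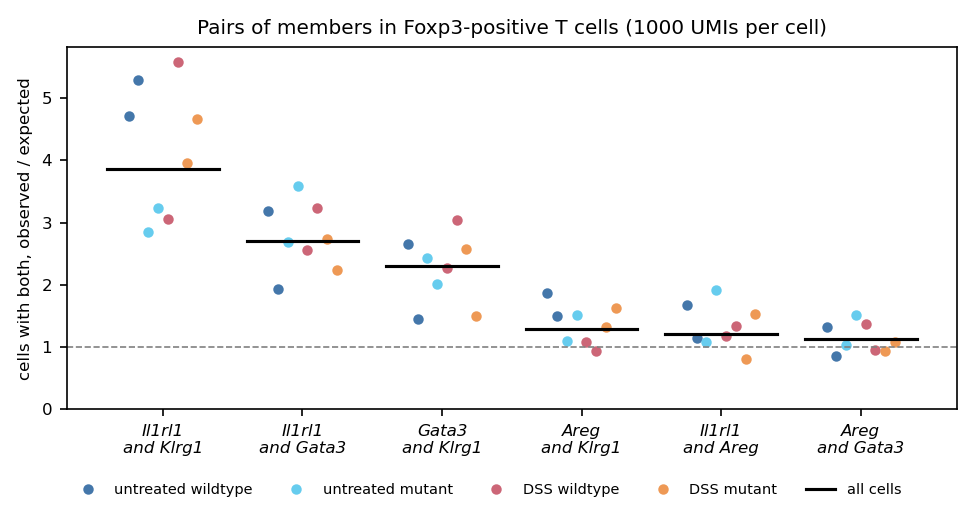
Number of Foxp3-positive T cells with UMIs of both genes of a pair divided by the number expected from their separate shares, at 1000 UMIs per cell; points are libraries coloured by group, black bars all cells together and the dashed line is 1. The 3 pairs among Il1rl1, Gata3 and Klrg1 lie above 1 in all 8 libraries, and the 3 pairs with Areg lie on both sides of 1, between 0.814 and 1.91.

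DSS was compared with untreated over both genotypes to ask whether Foxp3-positive T cells change the module after injury. None of the 4 members passed, where 14.7% of 9992 genes did (edgeR quasi-likelihood test, 4 against 4 libraries). Areg was 425 and 555 CPM in the untreated wildtype, 354 and 614 in the untreated mutant, 689 and 748 in the DSS wildtype and 985 and 479 in the DSS mutant. The second DSS mutant library lay among the untreated ones and the other 3 DSS libraries above them, giving a log2 difference of 0.52 ± 0.21 (adjusted p = 0.105, edgeR). Areg passed without that library (0.74, adjusted p = 0.00756, edgeR), on the authors' list (0.82, 0.0179) and with no filter on low counts (3.21e-07). Without the filter, genes also passed in the genotype tests, where the main fit called 0 of 9992. A call that rests on that setting alone therefore carries less weight.

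Il1rl1 was 103 and 81.6 CPM in the untreated wildtype, 70.7 and 98.2 in the untreated mutant, 155 and 94.3 in the DSS wildtype and 137 and 61.7 in the DSS mutant. In each DSS pair 1 library was above and the other within or below the untreated range, and the log2 difference was 0.27 ± 0.24 (adjusted p = 0.470, edgeR), with the opposite sign, -0.06, without the first DSS mutant library. Klrg1 was 29.95 and 38.96 CPM in the untreated wildtype, 39.3 and 55.4 in the untreated mutant, 31.9 and 27.2 in the DSS wildtype and 38.1 and 25.6 in the DSS mutant, overlapping groups with a log2 difference of -0.45 ± 0.17 (adjusted p = 0.0892, edgeR). It passed without the first DSS mutant library (-0.59, adjusted p = 0.0227, edgeR) and with no filter on low counts (0.0433). Gata3 was 122 and 108, 111 and 113, 136 and 121, and 118 and 121 CPM in the same order of groups (log2 difference 0.07 ± 0.09, adjusted p = 0.652, edgeR).

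**Figure D3:**
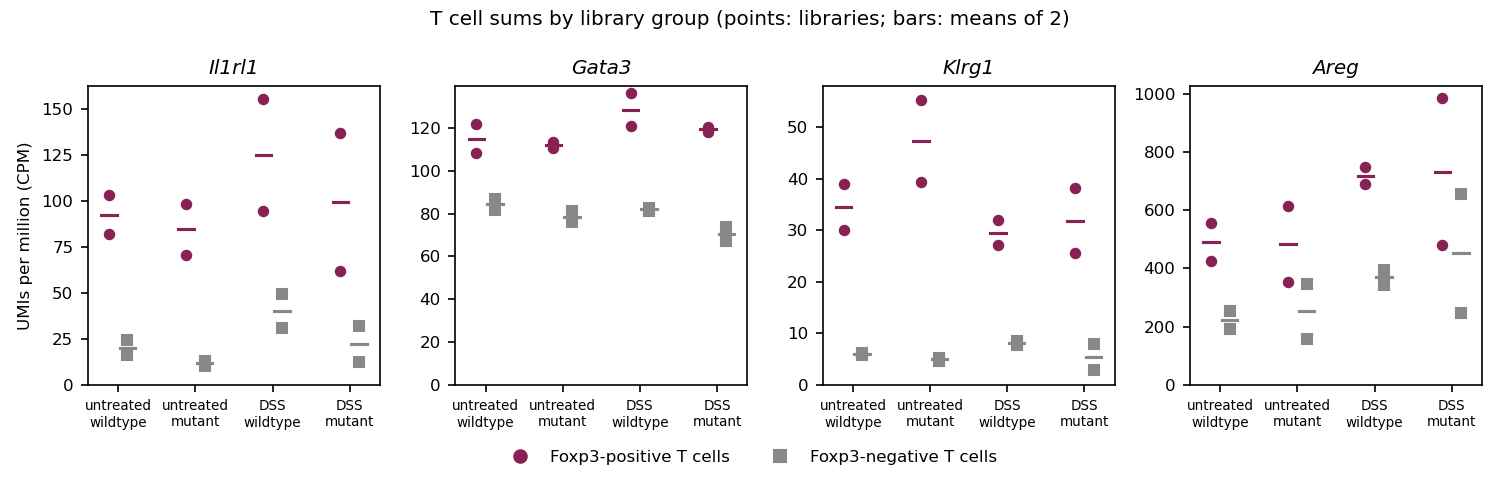
CPM of each member in Foxp3-positive (circles) and Foxp3-negative (squares) T cells by library group; points are libraries and bars means of 2. Foxp3-positive T cells lie above Foxp3-negative T cells for each member within every library group except for Areg in the DSS mutant, where the ranges meet, and untreated and DSS libraries overlap in the Foxp3-positive T cells.

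The share of Foxp3-positive T cells with a Gata3 UMI, thinned to 1000 UMIs, was 12.7 ± 2.07% after DSS and 9.92 ± 0.579% untreated (SD, n = 4 libraries each; exact two-sided permutation p = 0.0286, the smallest that 4 against 4 allows, and 0.114 adjusted over the 4 genes, which does not pass). All 4 DSS libraries were above all 4 untreated ones, but only just. The lowest DSS library had 10.53% (140 of 1329 cells) and the highest untreated library 10.46% (57 of 545 cells), from 1 random thinning. The difference of the means was 1.02 points at 1500 UMIs (exact p = 0.229) and 4.23 points without thinning (exact p = 0.257), and the 2 treatments stayed apart on the authors' list (3.34 points, exact p = 0.0286) and at 2 Foxp3 UMIs or more (4.10 points, exact p = 0.0286), all unadjusted. For Il1rl1, Areg and Klrg1 the differences were 2.07, 4.63 and -0.712 points (exact p = 0.286, 0.314 and 0.514). These last p-values are unadjusted. Among the 16 tested genes of the tissue regulatory T cell list, Itgae (0.87), Il1r2, a decoy receptor for IL-1 (0.60), Ccr2 (0.42) and Batf (0.37) rose after DSS and Tnfrsf4 (-0.58), Il10 (-0.53) and Nfil3 (-0.43) fell, with a median of 0.00 against 0.02 over all genes. Summed regulatory T cell markers were 1976 to 2193 CPM untreated and 2234 to 2613 after DSS, T cell markers 3466 to 3839 and 2778 to 3215, and ILC2 markers 50.7 to 78.2 and 32.5 to 48.9, each without overlap, and a set of 7 stress-response genes chosen after the values were seen ran from 1050 to 3084 and from 1115 to 1441 CPM. Their part in these differences was not tested.

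Within wildtype libraries the DSS differences were 0.38 for Il1rl1, 0.49 for Areg, 0.10 for Gata3 and -0.26 for Klrg1 (log2; adjusted p = 0.569, 0.378, 0.711 and 0.584, edgeR; 1.61% of genes passed). In the mutant they were 0.16, 0.54, 0.03 and -0.64 (adjusted p = 0.820, 0.295, 0.909 and 0.142, edgeR; 3.42% of genes passed). No member passed between mutant and wildtype Foxp3-positive T cells, untreated or after DSS, or in the test of whether the DSS differences of the genotypes differ. In these 3 tests edgeR called 0 of 9992 genes (0%) and DESeq2 also called 0, with 541, 199 and 444 genes at an unadjusted p under 0.05. The largest of these member differences was Klrg1 in untreated mice, 39.3 and 55.4 CPM in the mutant against 29.95 and 38.96 in the wildtype (log2 difference 0.44 ± 0.26, adjusted p = 0.890, edgeR). Il1rl1 after DSS was 0.37 ± 0.31 lower in the mutant, with 1 library of each genotype inside the range of the other. With 2 libraries per group these tests cannot tell small differences from none.

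Foxp3-negative T cells differed from Foxp3-positive ones in their Il1rl1 response. Il1rl1 there was 24.0 and 16.2 CPM in the untreated wildtype, 13.1 and 9.98 in the untreated mutant, 49.4 and 30.6 in the DSS wildtype and 31.8 and 12.2 in the DSS mutant. All DSS libraries but the second mutant one were above all untreated ones, and the log2 difference was 0.91 ± 0.29 (adjusted p = 0.0530, edgeR; 20.3% of 12363 genes passed). It passed in 4 of 14 alternatives: without the second DSS mutant library (1.17, adjusted p = 0.0125, edgeR), on the authors' list (0.90, 0.0334), with library totals (0.97, 0.0440) and with no filter on low counts (1.15e-12). The limit of the setting without a filter, given above, holds here too. The test of the difference between the 2 populations gave -0.59 ± 0.13 (adjusted p = 0.00694, edgeR with library as block), so the proportional DSS difference was the smaller in Foxp3-positive T cells. In this test 5.74% of genes passed and 2.28% in that direction. Beside this, regulatory T cell markers in the Foxp3-negative T cells, with Foxp3 at 0 by the gate, were higher after DSS without overlap (718 to 858 CPM untreated, 1015 to 1203 after DSS), and T cell markers (3490 to 3870, 2761 to 3310) and ILC2 markers (69.5 to 97.0, 48.3 to 68.6) were lower without overlap. The same 3 lists moved in the same directions without overlap in Foxp3-positive T cells, with the values given above. Neutrophil markers (8.16 to 9.18, 10.1 to 21.7) and squamous epithelial markers (0 to 0.565, 1.48 to 8.01) were higher without overlap in the Foxp3-negative T cells. Their part in the Il1rl1 difference was not tested. In CPM the gap between the DSS and untreated means was the wider in Foxp3-positive T cells, 112 against 88.4, and in Foxp3-negative T cells it was 31.0 against 15.8. The call was lost without the second untreated mutant library (-0.36, adjusted p = 0.127, edgeR) and without the second untreated wildtype library (-0.51, 0.0555), and 12 of 14 alternatives kept it. Klrg1 (-0.61, adjusted p = 0.0661), Gata3 (0.25, 0.0871) and Areg (-0.17, 0.312) did not pass (edgeR).

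In ILC2-like cells DSS was not tested, since the test was set only for populations with at least 10 cells in every library and 3 of the 4 DSS libraries had fewer. An Areg UMI was present in 47 of 77 untreated and 5 of 21 DSS cells thinned to 1000 UMIs, and a Gata3 UMI in 50 of 77 and 13 of 21. By library, Areg was 1526 to 1711 CPM untreated, 1604 in the DSS wildtype library with such cells, within that range, and 600 and 227 (10 and 3 UMIs) in the DSS mutant libraries, below it. ILC3-like cells had Areg at 91 to 361 CPM untreated and 159 to 434 after DSS (log2 difference 0.55 ± 0.32, adjusted p = 0.367, edgeR; 3.12% of 3973 genes passed), and neither Areg nor Gata3 passed there.

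The largest DSS difference of a member in the populations tested, on the log2 scale, was that of Il1rl1 outside the lymphocytes. Stromal-like cells, gated on fibroblast and smooth muscle genes, had Il1rl1 at 3.65 and 5.02 CPM in the untreated wildtype, 5.24 and 4.20 in the untreated mutant, 19.2 and 112 in the DSS wildtype and 54.1 and 39.1 in the DSS mutant. All 4 DSS libraries were above all 4 untreated ones, a log2 difference of 3.65 ± 0.48 (adjusted p = 0.00340, edgeR; 13.5% of 12652 genes passed, 7.33% higher), and Il1rl1 passed in each of the 11 alternatives that gave a value, with adjusted p up to 0.0307 (edgeR). The difference ranged there from 2.65, without the second DSS wildtype library, to 3.999, without the first. On the authors' list Il1rl1 gave no value in stromal-like cells, so the call could not be checked in that setting. Thinned to 1000 UMIs, 16 of 5224 untreated and 53 of 2293 DSS cells had an Il1rl1 UMI, or 0.278 to 0.349% and 0.905 to 3.57% per library, and without thinning 0.615 to 1.04% and 2.63 to 7.39%, with median depths of 3534 to 4743 and 4434 to 6053 UMIs. The library counts ran from 19 to 44 UMIs untreated and from 27 to 541 after DSS.

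Il33, the ligand of ST2, moved the same way in the stromal-like sums, at 21.6 and 23.4 CPM in the untreated wildtype, 24.2 and 20.3 in the untreated mutant, 139 and 63.6 in the DSS wildtype and 98.5 and 58.6 in the DSS mutant (log2 difference 1.94 ± 0.23, adjusted p = 0.00224, edgeR). The library with the highest Il1rl1 was not the one with the highest Il33. Il1rap rose too (0.86, adjusted p = 0.0246, edgeR), so 2 of the 6 IL-33 pathway genes other than Il1rl1 passed, and of 5 tested genes around the epidermal growth factor receptor 1 passed, the ligand Ereg (2.21, adjusted p = 0.0406, edgeR), which encodes another growth factor of the amphiregulin family. Areg did not pass in stromal-like cells (0.71 ± 0.35, adjusted p = 0.206, edgeR). Egfr, the receptor for amphiregulin, stood at 69.7 CPM in stromal-like and 37.2 in epithelial-like cells, and Cdh1, which encodes a KLRG1 ligand, at 206 CPM in epithelial-like cells. Cdh1 is itself a marker in the gate of epithelial-like cells, so its level there is set in part by the gate. The epithelial-like levels of Egfr and Cdh1 were likewise not split into columnar and squamous cells.

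Mast cell markers, which mark another source of Il1rl1, summed to 0 to 1.91 CPM in the untreated and 0 to 0.206 in the DSS stromal-like cells, with at most 3 of 10 detected. T cell markers summed to 36.9 to 98.1 and 53.4 to 102 CPM. Regulatory T cell markers were higher after DSS without overlap, 23.0 to 52.4 CPM untreated and 57.6 to 98.8 after DSS, with 4 of 4 detected. Foxp3 itself rose from a mean of 0.684 to 3.22 CPM (log2 difference 2.45, adjusted p = 0.0261, edgeR), beside stromal Il1rl1 means of 4.53 and 56.04 CPM. In Foxp3-positive T cells after DSS the means were 480 CPM for Foxp3 and 112 for Il1rl1. Also higher without overlap were the summed markers of ILC2 (81.1 to 91.2 untreated, 94.8 to 146 CPM after DSS), ILC3 (131 to 237, 314 to 381), gamma-delta T cells (1.79 to 4.86, 5.51 to 14.9), enteric glia (118 to 165, 183 to 340), neutrophils (1.19 to 3.45, 6.41 to 14.0) and squamous epithelium (0 in all untreated libraries, 2.14 to 8.82). Fibroblast markers were 14312 to 15918 CPM untreated and 14619 to 21349 after DSS, smooth muscle markers 3337 to 5948 and 1976 to 8368, stress-response genes 17740 to 20064 and 10045 to 14725, and the number of stromal-like cells 877 to 1661 and 228 to 853. The part of these markers and of a changed mixture of stromal cells in the Il1rl1 difference was not tested.

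**Figure D4:**
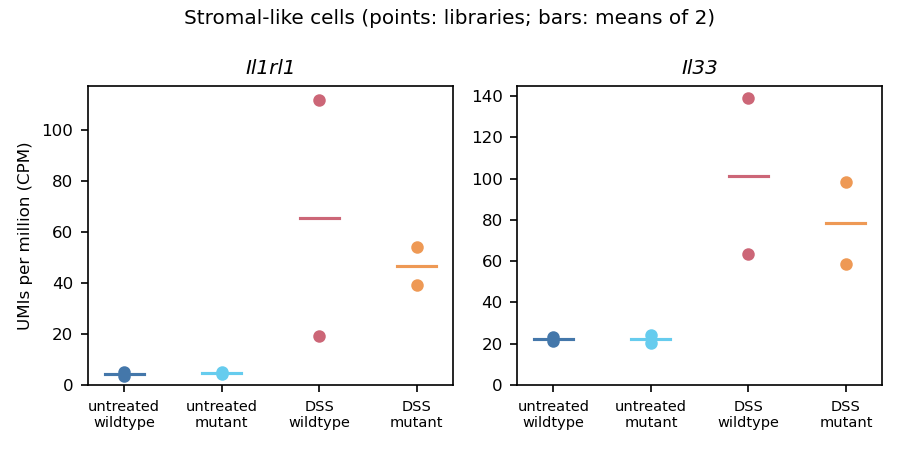
CPM of Il1rl1 and of its ligand Il33 in stromal-like cells by library group; points are libraries and bars means of 2. The 4 untreated libraries lie at 3.65 to 5.24 CPM for Il1rl1 and 20.3 to 24.2 for Il33, below all 4 DSS libraries for both genes.

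Macrophage- or monocyte-like cells had low counts, with Il1rl1 at 0.539 to 2.69 CPM untreated and 1.48 to 10.2 after DSS and Gata3 at 2.14 to 4.14 and 5.05 to 9.15. Both passed (log2 differences 1.99 and 1.003, adjusted p = 0.0259 and 0.0239, edgeR; 23.8% of 9948 genes passed), in 6 and 5 of 12 alternatives. Over these the Il1rl1 difference ranged from 1.02, without the first DSS mutant library (adjusted p = 0.190, edgeR), to 3.25 on the authors' list, and the Gata3 difference from 0.82 to 1.55 in the same order. Both calls were lost without any 1 of the 4 untreated, the first DSS wildtype or the first DSS mutant library, and that of Gata3 also with DESeq2. Foxp3 rose beside Il1rl1 and Gata3 in these cells, from a mean of 1.99 to 8.35 CPM (log2 difference 2.05), and its part in the difference was not tested. Areg did not pass in these cells, and Klrg1 did not enter the test. The filter on low counts keeps a gene that reaches its limit in 1 group only. Il1rl1 may therefore have entered this test through the DSS libraries, where it was higher.

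Genes most alike to each member were ranked over 78 sums of a population and a library with at least 30 cells, from 12 populations, by Pearson's r of log2(CPM + 1) among 10679 genes. ILC2-like cells, with at most 28 in a library, did not enter any of these values. The points share libraries, depth and populations, and r is given as a description. Il1rl1 was most like Sytl2 (r = 0.785), Prg4 (0.773) and Penk (0.767). For Areg these were Tiam1 (0.856), Ltb4r1 (0.818) and Fam46a (0.816), followed by Ikzf2 (0.801). Gata3 was nearest to Aebp2 (0.906), Rundc3b (0.893) and Gstp3 (0.889), and Klrg1 to Tpr (0.853) and the receptors Tnfrsf9 (0.849) and Tnfrsf18 (0.845). Among the members themselves r was highest for Gata3 and Klrg1 (0.805) and lowest for Areg and Il1rl1 (0.515).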

How the data were processed

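UMI counts were deposited by the authors, 1 table for each library, and were used as raw counts. Cell Ranger 3.1.0, Seurat 4.0.1 and mm10 are named per the submitters' processing notes, with no role given. The 4 members and all gene lists were chosen with earlier results of these data known. Groups came from the sample titles, whose animal numbers give no replicate numbers. Markers were fixed with the design, and the marker numbers of each gate were set after the counts were seen. Barcodes with a second lineage (7169) were set aside as possible doublets, with no doublet caller. The named genes are the 4 members, the fixed lists (IL-33 pathway, epidermal growth factor receptor, KLRG1 ligands, type 2 cytokine genes and tissue regulatory T cell genes) and the 5 genes most alike to each member.

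UMIs were summed per library and population and tested with edgeR 4.0.16 in R 4.3.3 (quasi-likelihood test, TMM, filterByExpr, Benjamini-Hochberg adjustment over all genes, threshold 0.05). Foxp3-positive and Foxp3-negative T cells were compared with library as block. Treatment and genotype were compared over group means of all 8 libraries. The stromal-like and macrophage-like comparisons were added after the data were seen. Alternatives were DESeq2 1.42.0, library totals, no filter on low counts, the authors' list, stricter gates and leaving out each library. For shares, cells were thinned to 1000 UMIs (alternative 1500) and libraries compared by an exact permutation test (scipy 1.17.1). Intervals and limits for a count of 0 (3 counts) cover counting error only. Libraries held 34497509 to 46960005 UMIs. On simulated counts, 88% of genes changed by 1 and 100% of genes changed by 2 on the log2 scale were recovered for DSS against untreated in Foxp3-positive T cells, in 9924 genes. For Foxp3-positive against Foxp3-negative T cells these were 96% and 100%, in 12221 genes. False calls were 3.09% of the calls in the first and 6.67% in the second simulation, the latter above the threshold of 5%. Both simulations gave every gene the same spread between libraries and changed only genes above a minimum mean count. Their recovery rates therefore need not hold for the members. Promoters came from RefSeq (GRCm38.p6, the assembly of mm10), which gave windows for 3 of the 4 members, and gene positions from GENCODE. A promoter of Klrg1 was not used here, and the mutated gene is not reported here.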

Additional observations from a re-analysis of the deposited data

Results flagged for a closer look

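In 32 sets of 4 libraries of 1 treatment, 4 held a library far from the other 3, where chance gives about 1 in 20. Gata3 in Foxp3-positive T cells was 136.1 CPM in the first DSS wildtype library against 118 to 121 in the other DSS libraries. Klrg1 in Foxp3-negative T cells was 2.955 CPM in the second DSS mutant library against 7.65 to 8.42, Klrg1 in ILC3-like cells was 13.53 CPM (3 UMIs) in the second untreated mutant library, and Klrg1 in stromal-like cells was 0.4129 CPM (2 UMIs) in the second DSS wildtype library and 0 in the other 3 DSS libraries. The rate of 1 in 20 does not hold for sets of so few UMIs, where 1 library above 3 at 0 is always picked out.

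The DSS difference of Il1rl1 was smaller in Foxp3-positive than in Foxp3-negative T cells by a test of the difference itself, -0.592 on the log2 scale (adjusted p = 0.00694, edgeR with library as block). Regulatory T cell markers in the Foxp3-negative T cells were 718 to 858 CPM untreated and 1015 to 1203 after DSS, those in the Foxp3-positive T cells 1976 to 2193 and 2234 to 2613, and their part in this difference was not tested. The direction of the difference held in all 14 alternatives, from -0.84 to -0.36.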

How the results depend on the processing

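The calls of all 4 members in Foxp3-positive against Foxp3-negative T cells and of Il1rl1 in stromal-like cells were kept under every alternative that gave a value. Over single members, 543 alternatives kept side and direction, 43 reversed the sign, 20 newly passed and 15 no longer passed, and the cause was not tested. With library totals in place of TMM the members moved by up to 0.12 (log2) between Foxp3-positive and Foxp3-negative T cells, and genes higher and lower there changed from 2381 and 2588 to 3858 and 1549, for DSS in Foxp3-positive T cells from 660 and 807 to 954 and 611, for DSS in Foxp3-negative T cells from 1323 and 1185 to 1828 and 808, for ILC3-like cells from 55 and 69 to 67 and 30 and for macrophage-like cells from 1157 and 1214 to 2156 and 689. Low counts limit Il1rl1 and Klrg1 in ILC3-like cells. DSS in ILC2-like cells and its alternatives were not run, for want of cells.

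Genes called, all genes: on the authors' list 3273 between Foxp3-positive and Foxp3-negative T cells, 949 for DSS in Foxp3-positive T cells, 185 in the mutant alone, 1521 in Foxp3-negative T cells, 365 for the difference of the DSS effects, 25 in ILC3-like, 340 in stromal-like and 1434 in macrophage-like cells. DESeq2 called 875, 245 and 62 for DSS in Foxp3-positive T cells, the difference of effects and ILC3-like cells. With no filter on low counts there were 677 (DSS, wildtype), 934 (DSS, mutant), 41 (genotype, untreated), 29 (genotype, DSS), 42 (interaction) and 2892 (stromal-like). The main fits called 161, 342, 0, 0, 0 and 1704 in the same order. At least 2 Foxp3 UMIs gave 783 (DSS), 67 (wildtype), 189 (mutant) and 3 (genotype, untreated). At least 3 ILC markers gave 50 in ILC3-like cells. Fitting only the 4 libraries compared gave 315 for DSS in wildtype and 19 for genotype untreated.

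Leaving out 1 library gave 511 to 1588 genes for DSS in Foxp3-positive T cells, 0 to 348 in wildtype, 12 to 540 in the mutant, 0 to 4 and 0 to 8 for genotype untreated and after DSS, 0 to 10 for the interaction, 191 to 2528 in Foxp3-negative T cells, 327 to 949 for the difference of effects, 19 to 125 in ILC3-like, 435 to 2244 in stromal-like and 784 to 2571 in macrophage-like cells. Members called then ranged from 0 to 1 for DSS in Foxp3-positive T cells and in the mutant alone, 0 to 2 in Foxp3-negative T cells, 0 to 3 for the difference of effects, 1 to 2 in stromal-like and 0 to 2 in macrophage-like cells. With no filter on low counts 2 members passed for DSS in Foxp3-positive T cells, 1 in wildtype, 1 in the mutant, 2 in Foxp3-negative T cells, 2 for the difference and 2 in stromal-like cells. On the authors' list 1 passed in Foxp3-positive and 1 in Foxp3-negative T cells and 0 in stromal-like cells, where Il1rl1 gave no value. Library totals gave 1 in Foxp3-negative T cells, and DESeq2 gave 1 in macrophage-like cells. These counts of members stand without the share of all genes that passed in the same setting. They describe the settings and are no result about the members.

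Signs that turned were all of differences that did not pass (log2). For DSS in Foxp3-positive T cells, Il1rl1 ranged from -0.056 to 0.51 over left-out libraries. In wildtype alone Il1rl1 ranged from -0.052 to 0.70 and Gata3 from -0.0055 to 0.20, with Gata3 -0.016 on the authors' list. In the mutant Il1rl1 ranged from -0.49 to 0.65 and Areg from -0.061 to 0.99, with Il1rl1 -0.30 on the authors' list and -0.082 at 2 Foxp3 UMIs, and Gata3 -0.033 with the stricter T cell gate. For genotype untreated, Il1rl1 ranged from -0.41 to 0.051, Areg from -0.48 to 0.30 and Gata3 from -0.15 to 0.027, with Il1rl1 0.017 on the authors' list and 0.27 at 2 Foxp3 UMIs. For genotype after DSS, Il1rl1 ranged from -1.04 to 0.11, Areg from -0.60 to 0.44 and Klrg1 from -0.23 to 0.35, with Areg -0.027 on the authors' list and Klrg1 -0.25 at 2 Foxp3 UMIs. For the interaction, Il1rl1 ranged from -0.88 to 0.27, Areg from -0.56 to 0.49 and Gata3 from -0.16 to 0.047, with Gata3 0.087 and Klrg1 0.17 on the authors' list. Klrg1 in Foxp3-negative T cells ranged from -0.21 to 0.48, and Areg in the difference of effects was 0.055 on the authors' list. In stromal-like cells Areg ranged from -0.017 to 1.03 and Gata3 from -0.16 to 0.34, and in macrophage-like cells Areg from -0.99 to 0.25.

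With a replicate block of neighbouring animal numbers, 6 genes were called for genotype untreated and 0 after DSS, and Areg after DSS was -0.076. No member was called in these genotype tests with or without the block, which rests on titles that do not state a pairing. Each block holds libraries of 1 treatment only. A DSS difference cannot be fitted within such blocks, and no DSS call was put to this alternative. The share of Foxp3-positive T cells with a Gata3 UMI was higher after DSS by 4.23 points without thinning and 1.02 points at 1500 UMIs, and by 2.03 to 3.57 points over left-out libraries, none of which can pass with 3 against 4. The Il1rl1 share moved by -0.079 points on the authors' list, and the Klrg1 share by -1.20 to 0.070 points over left-out libraries. ILC2-like cells with at least 3 markers held 467 CPM Il1rl1, 2136 Areg, 1465 Gata3 and 138 Klrg1.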

Other observations

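Gata3 in epithelial-like cells was 199.98 CPM (131 UMIs) in the first untreated mutant library, from 64 cells, and 0, 9.33, 5.95 and 30.01 CPM in the 4 DSS libraries. Klrg1 was 0 UMIs there in all of them.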
